A study of Mus musculus with 11 samples.

Results

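A set of 8 genes marking the sinusoidal endothelium of the bone marrow was followed: Stab1, Stab2, Lyve1, Mrc1, Fcgr2b, Il6st, Vcl and Ctsf. They were chosen by symbol, as the rows of the gene count table that carry these names. All 8 had a row among the 23464 named rows kept, and 7 of the 8 were among the 11949 genes with enough reads to test. The cells were marrow endothelial cells with high CD31 and high endomucin (CD31hi EMCNhi, the sort gate for type H vessels), sorted from adult BALB/c mice. In mice burdened with the 4T1.2 mammary tumour line expressing red fluorescent protein (RFP), marrow was microdissected by its RFP signal into tumour-infiltrated (met, 3 libraries) and adjacent tumour-free (non-met, 6 libraries) areas, and healthy age-matched BALB/c mice were the control (2 libraries). Each library came from a pool of mice: pool 1 gave 2 non-met libraries, pool 2 gave 2 non-met and 1 met, pools 3 and 4 gave 1 of each, and each control library had a pool of its own. Blood cells were gated out with CD45 and Ter119, and the tumour was a single cell line.

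Marrow sinusoids are wide, thin-walled and leaky vessels through which blood cells leave the marrow, and their endothelium is specialised for clearing waste molecules from the blood. Scavenger and endocytic receptors do this work, with lysosomal proteases behind them, and the stabilins are the receptors most used to tell sinusoidal endothelium from other endothelium. Type H vessels, near the growth plate, are the bone capillaries high in both CD31 and endomucin. Sinusoids are usually described as lower for both, so the genes followed here were measured inside a gate not drawn for sinusoids. The study's imaging found that vessels in met areas gained CD31 and endomucin but lacked the osteoprogenitors and pericytes of type H vessels. The study proposes that the remodelled vessels mix type H and sinusoidal ones. Whether the gate held other vessels in met than elsewhere was not tested.

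The libraries ranged from 733342 to 19539761 counts, and the shallowest was non-met 4 of pool 4. The mitochondrial share of counts was at most 6.20% in control, 6.72% to 17.8% in non-met and 4.33% to 9.56% in met, so every non-met library was above both controls, and its part in the differences between non-met and control was not tested. Keratin reads (Krt8, Krt18 and Krt19 together) separated the libraries into sets, in CPM (counts scaled to the TMM-adjusted size of each library). The lower set had at most 4.93 CPM (both controls and non-met 1 and 2) and the higher set at least 9.75 CPM (all others). The controls and the met libraries thus never shared a set. In the higher set, met stood at 9.75 to 68.0 CPM and non-met 3 to 6 at 25.4 to 83.5 CPM. Among the markers of other cells, the 11 granulocyte genes summed to 397 to 5258 CPM in non-met. Their sum was 35.4 to 203 CPM in met and 77.8 to 359 CPM in control. The 6 megakaryocyte genes summed to 42.6 to 123 CPM in met, 0 to 57.7 CPM in non-met and 0 to 31.3 CPM in control. Of these, Itga2b stood at 29.9 to 100 CPM in met, 0 to 26.9 CPM in non-met and 0 CPM in control. In bulk libraries such as these, fewer cells of one kind and less RNA per cell cannot be told apart. The labels name mouse pools but not whether libraries of 1 pool and group came from separate animals, so the P values below measure the spread between libraries.

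The upstream sequences of the 2 stabilin genes are shown because these paralogues, which are read side by side below, differed from each other in their levels across the groups. RefSeq (GRCm38.p6) gave promoter sequence for 7 of the 8 genes, as the 250 bases before the start that its promoter table gives. That start lies 10 bases inside the annotated span of Stab1 and 96 bases inside that of Stab2, and only the bases outside the span are printed, 5′ to 3′ on the gene's own strand. Stab1 lies at chr14:31139017-31168651 on the minus strand (Entrez gene 192187), and the 240 bases printed are chr14:31168652-31168891. Stab2 lies at chr10:86841194-87008038 on the minus strand (Entrez gene 192188), and the 154 bases printed are chr10:87008039-87008192. Capitals mark, in Stab1, a match to AGGAAG, the core of many sites of ETS factors that endothelial genes use, and a match to TGCTGA, a half-site of MAF factors, whereas the printed stretch of Stab2 holds neither.
Stab1: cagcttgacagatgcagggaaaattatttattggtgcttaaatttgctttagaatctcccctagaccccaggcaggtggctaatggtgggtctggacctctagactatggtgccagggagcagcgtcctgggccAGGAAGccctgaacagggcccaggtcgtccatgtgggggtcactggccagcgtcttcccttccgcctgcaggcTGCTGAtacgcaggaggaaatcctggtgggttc
Stab2: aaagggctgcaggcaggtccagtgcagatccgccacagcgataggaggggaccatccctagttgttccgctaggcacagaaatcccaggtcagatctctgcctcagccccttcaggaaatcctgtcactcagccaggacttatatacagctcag

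The ETS letters began 116 bases before the table's start on the printed strand of Stab1. In Stab2 they lay on the opposite strand 40 bases before the table's start, inside the annotated span and so outside the printed stretch. The windows of 250 bases were searched whole. Both strands were searched, and no match overlapped another. AGGAAG was present in 3 of the 7 windows (Stab1, Stab2 and, 3 times, Mrc1) and in 29.2% of the 27025 mouse promoter windows of the same length. TGCTGA was in 1 of 7, against 15.8% of all windows. The letters AGATAA, which GATA factors use, were in 0 of 7 windows and in 10.3% of all windows, and TTCNNNGAA, which STAT factors use downstream of Il6st, was in 0 of 7 and in 7.18% of all. A match is a description of letters in these windows and not of binding.

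Per length of transcript, the genes fell into a high, a low and a silent tier inside the CD31hi EMCNhi gate. On the RPKM scale (CPM divided by the exonic length in kilobases), the mean level over all 11 libraries was 441 ± 156 (SD, n = 11) for Il6st, 222 ± 109 for Fcgr2b, 208 ± 86.1 for Stab2, 173 ± 40.5 for Stab1 and 140 ± 64.1 for Mrc1. These 5 ranked 80, 210, 221, 287 and 402 of the 11949 genes tested by mean RPKM. Vcl, at 29.0 ± 19.1 RPKM, ranked 2792, and Ctsf, at 10.1 ± 17.1 RPKM, ranked 6409. For comparison, the sort markers Pecam1 (CD31) and Emcn (endomucin) stood at 565 ± 215 and 597 ± 247 RPKM and ranked 61 and 55. The ranges of the libraries overlapped for every neighbouring pair from Il6st down to Ctsf. Fcgr2b, Stab2, Stab1 and Mrc1 each differed from the next by less than the SD of either, whereas Il6st stood above Fcgr2b, and Mrc1 above Vcl, by more than either SD. Mrc1 and Vcl overlapped only through met 1, where Mrc1 was at 57.6 RPKM and Vcl at its highest, 78.2 RPKM. The order also depended on the group: in control, Stab2 (353 ± 86.3 RPKM, n = 2) stood next to Il6st and Fcgr2b (141 ± 46.2 RPKM) below Stab1 and Mrc1, whereas in non-met Fcgr2b (283 ± 108 RPKM, n = 6) stood next to Il6st. Whether counting used strand is not stated, and the annotated spans of 4 of the genes overlap those of others. Stab1 overlaps Nt5dc2 and Gm52148, Stab2 overlaps Gm16270 and Gm16271, Mrc1 overlaps Mir511, and Vcl overlaps Ap3m1, Gm52168 and Gm30274. These spans include introns, and whether any exons are shared was not examined.

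**Figure D1:**
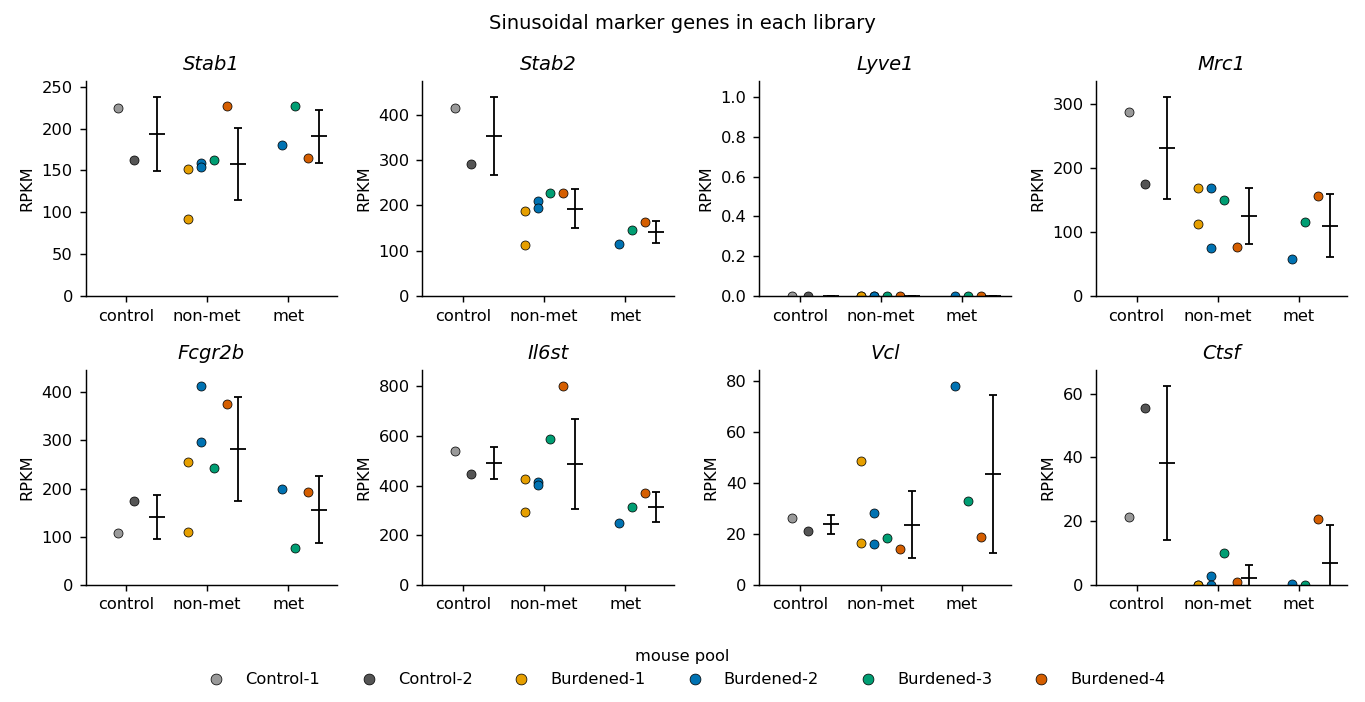
Level of each gene in RPKM (vertical axis, from 0) in the control, non-met and met libraries. Each point is a library coloured by mouse pool, and the bar beside each group is the mean ± SD, drawn from 0 where it would pass below it. Stab2 in both controls (292 and 414 RPKM) lies above all 9 libraries of burdened mice, while Lyve1 is at 0 throughout.

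Lyve1, a hyaluronan receptor of lymphatic and of many sinusoidal endothelial cells (chr7:110850607-110862953), had 0 reads in all 11 libraries, which together held 63578779 counts. A count of 0 allows up to 3 reads, or 0.157 CPM in the deepest library and 4.76 CPM in the shallowest, for counting error only. Of the 7 other lymphatic genes listed, 3 (Pdpn, Ccl21a and Reln) were also at 0 in every library. Prox1, the lymphatic master regulator, was at 0 in control and non-met and at most 21.0 CPM in met, and Mmrn1 stood at 235 and 398 CPM in control, 0 to 142 CPM in non-met and 0.44 to 63.7 CPM in met. Sox18 and Nrp2, which blood endothelium shares, averaged 624 and 464 CPM over all libraries, and voomLmFit called 0 of the 4 tested in any comparison, with 0, 1 and 1 at an unadjusted P under 0.05 in met against non-met, met against control and non-met against control, and 0 by the other 3 tools. Stab1 and Stab2 were thus read in all libraries and Lyve1 in none of them.

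Stab2, an endocytic receptor that clears hyaluronan and other waste from blood, was the 1 gene of the set that voomLmFit called in both comparisons with control. It was at 3364 and 2371 CPM in the controls, at 920 CPM (lowest), 1644 CPM (median) and 1843 CPM (highest) in non-met, and at 935, 1183 and 1331 CPM in met 1, 2 and 3. Both controls were above every library of burdened mice. Non-met 5 (pool 1) lay below all met libraries, and every other non-met library lay above all of them. With voomLmFit of edgeR, which weights libraries by how well they fit, Stab2 fell by 0.94 on the log2 scale in met against control (SE 0.151, adjusted P = 0.00058) and fell by 0.58 in non-met against control (SE 0.113, adjusted P = 0.0136). The plain difference of mean log2 CPM was -1.31 for met (exact permutation test, two-sided, P = 0.1, the smallest that 10 splits allow) and -0.88 for non-met (exact permutation P = 0.0357, the smallest that 28 splits allow). DESeq2 also called Stab2 in met against control (adjusted P = 0.00619, a call that 0.762% of genes received in this direction) but not in non-met against control (adjusted P = 0.312). Neither contrast was called by the edgeR quasi-likelihood test (adjusted P of 0.298 for met and 0.656 for non-met) or by limma-trend (0.0778 for met and 0.278 for non-met). Single libraries ended both calls: without met 2 or met 3 the voomLmFit adjusted P for met against control was 0.155 and 0.167, with a log2 fold change of -1.03 and -1.10. Without met 1 or any of non-met 1, 2, 4 and 6 the adjusted P for non-met against control was 0.0629, 0.075, 0.106, 0.076 and 0.0669, with a log2 fold change of -0.90, -0.67, -0.68, -0.66 and -0.79. In met against non-met the voomLmFit log2 fold change of Stab2 was -0.35 (SE 0.181, adjusted P = 0.723). Over the alternatives this fold ranged from -0.65 to -0.23, with a call under RLE size factors.

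Stab1, the other stabilin and likewise a scavenger receptor, did not separate the groups in this way. It was at 1796 and 1294 CPM in the controls, at 734, 1249 and 1811 CPM (lowest, median, highest) in non-met, and at 1447, 1810 and 1317 CPM in met. The 3 groups overlapped, and the highest and lowest libraries were both non-met. voomLmFit placed Stab1 0.39 lower in met than in control on the log2 scale (SE 0.0583, adjusted P = 0.000209), but the difference of mean log2 CPM was -0.01 (exact permutation P = 1). Control 1 carried 99.99% of the weight that voomLmFit gave to the controls for this gene, and without it the log2 fold change was 0.10 (adjusted P = 0.857). Without met 3 or without non-met 5 the adjusted P was 0.963 and 0.0861, and the quasi-likelihood test, limma-trend and DESeq2 each gave an adjusted P = 1. In non-met against control the voomLmFit log2 fold change was -0.53 (SE 0.128, adjusted P = 0.0536), and -0.04 without control 1. It was called with library size only (-0.71, adjusted P = 0.000265) and, at -0.54 to -0.43, with only the 2 groups, RLE factors, no weights or without control 2, met 2 or met 3 (voomLmFit adjusted P of 0.0227, 0.0312, 0.0201, 0.00276, 0.0185 and 0.0147).

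The ratio of Stab2 to Stab1 within a library is untouched by how libraries are scaled, and it was formed after the values of both genes had been seen, so it is given as a description with no test. On the RPKM scale it was 1.84 and 1.80 in the controls. In non-met it was 1.24, 1.32, 1.39, 0.999, 1.23 and 1.27 for libraries 1 to 6. In met it was 0.635, 0.643 and 0.994. Every control was above every non-met library and every non-met library above every met library. The last gap was narrowest in pool 4, where the non-met library (0.999, from 1017 reads of Stab2 and 1001 of Stab1) and the met library (0.994) had nearly equal ratios. In pools 2 and 3 the met libraries stood at about the same ratio, 0.635 and 0.643, below their non-met neighbours at 1.32, 1.27 and 1.39.

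**Figure D2:**
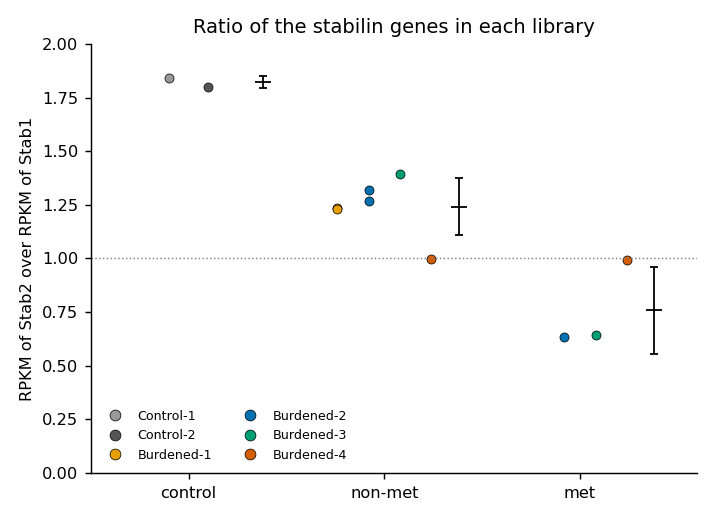
RPKM of Stab2 divided by RPKM of Stab1 (vertical axis, from 0) in each library, with points coloured by mouse pool, mean ± SD beside each group and a dotted line at a ratio of 1. The controls lie at 1.80 and 1.84, and the met libraries of pools 2 and 3 at 0.635 and 0.643, while both libraries of pool 4 lie at about 1.

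Mrc1, the mannose receptor, which takes up glycoproteins in sinusoidal endothelium and in macrophages (chr2:14229414-14332023, plus strand), was lower in burdened mice than in both controls without passing the test. It stood at 1526 and 929 CPM in the controls, at 400, 695 and 895 CPM (lowest, median, highest) in non-met, and at 306, 617 and 825 CPM in met. No library of burdened mice reached the lower control, while met and non-met overlapped. The voomLmFit log2 fold change was -1.10 in met against control (SE 0.299, adjusted P = 0.0701) and -0.93 in non-met against control (SE 0.314, adjusted P = 0.138). Its exact permutation P was 0.2 and 0.0714. Control 1 carried 99.9% of the weight that voomLmFit gave to the controls for Mrc1, and without it the log2 fold change was -0.34 in met and -0.20 in non-met against control. Other settings called it: in met against control without control 2 (-1.06, adjusted P = 0.000895), without met 1 (0.0495) or non-met 1 (0.0498), with RLE factors (0.0132), library size only (0.0271) or no weights (0.0179), and in non-met against control without control 2 (-0.92, adjusted P = 0.0148) or with library size only (0.0495), all by voomLmFit. Of 15 macrophage markers, C1qa, C1qb, C1qc, Vsig4 and Ms4a7 had 0 reads in every library, and the 15 summed to 21.1 to 47.6 CPM in control, 0.622 to 502 CPM in non-met and 0.44 to 73.5 CPM in met. Their part in the Mrc1 level was not tested.

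Ctsf, a lysosomal cysteine protease (cathepsin F, chr19:4855165-4860918, plus strand), was detected firmly in control and patchily elsewhere. It had 859 and 619 reads in the controls, 0, 36, 63, 1, 0 and 0 reads in non-met 1 to 6, and 1, 0 and 355 reads in met 1 to 3. As a level this was 42.0 and 110 CPM in control, 0 to 19.6 CPM in non-met, and 0.44, 0 and 40.7 CPM in met. Both controls were above all libraries of burdened mice, but met 3 at 40.7 CPM came close to control 1 at 42.0 CPM. The voomLmFit log2 fold change was -5.55 in non-met against control (SE 1.35, adjusted P = 0.0564) and -6.09 in met against control (SE 2.10, adjusted P = 0.144). The former passed at adjusted P of 0.0213 to 0.0496 in 7 alternatives (library size only, pool as a random block, no filter, and without control 1, met 2, met 3 or non-met 3). With so many libraries at or near 0 these folds depend on the prior count and are no measure of size.

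Il6st, which encodes gp130, the signalling chain shared by the receptors of interleukin 6, interleukin 11, LIF and oncostatin M (chr13:112464070-112506860, plus strand), was the most abundant of the 8 per length. It was at 2934 and 2437 CPM in control, at 1593, 2301 and 4380 CPM (lowest, median, highest) in non-met, and at 1361, 1717 and 2020 CPM in met. The met libraries lay below both controls and overlapped only the low end of non-met, where non-met 1 of pool 1 stood at 1593 CPM. Across all libraries voomLmFit gave a log2 fold change of -0.15 in met against non-met (SE 0.129, adjusted P = 0.816), in a fit that gave non-met 2 88.4% of the weight of its group, and the difference of mean log2 CPM was -0.59 (exact permutation P = 0.0833). Without non-met 2 that log2 fold change was 0.27 (adjusted P = 0.585). In met against control the voomLmFit log2 fold change was -0.33 (SE 0.151, adjusted P = 0.312) and the difference of means -0.67 (exact permutation P = 0.1, the smallest possible). It was called with a term for the library set (-1.04, voomLmFit adjusted P = 0.0347) and without non-met 1 (-0.41, adjusted P = 0.00309), and was -0.23 without control 1.

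Fcgr2b, the inhibitory Fc receptor with which sinusoidal endothelium removes immune complexes (chr1:170960558-170976071, minus strand), was the 1 gene of the set that stood highest in non-met. It was at 167 and 268 CPM in control, at 170, 427 and 641 CPM (lowest, median, highest) in non-met, and at 309, 118 and 298 CPM in met. Of the 6 non-met libraries, 5 were above every met and control library, and non-met 1 stood with the controls. The voomLmFit log2 fold change was -0.87 in met against non-met (SE 0.550, adjusted P = 0.751) and 1.05 in non-met against control (SE 0.392, adjusted P = 0.18), so neither passed. Without met 2 or non-met 2 the first was -0.38 and -0.36, and without control 1 or non-met 2 the latter was 0.53 and 0.57. B cells also carry this receptor: of 8 B cell markers, Ms4a1 and Blk were at 0 in every library, and the 8 summed to 17.0 and 17.8 CPM in control, 0 to 311 CPM in non-met and 0 to 96.9 CPM in met. Their part in the Fcgr2b level was not tested. Fcgr2b shares sequence with Fcgr3, which stood at 0 to 76.4 CPM in non-met and at most 1.76 CPM elsewhere, so reads may have been split between them.

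Vcl, which encodes vinculin, a linker of integrins and cadherins to actin (chr14:20929383-21033676, plus strand), was the only gene of the set higher in met than in non-met of its own pool throughout. It was at 138 and 110 CPM in control, at 72.4, 90.7 and 255 CPM (lowest, median, highest) in non-met, and at 409, 172 and 98.5 CPM in met. The groups overlapped. The voomLmFit log2 fold change in met against non-met was 0.26 (SE 0.681, adjusted P = 0.962), and it ranged from 0.09 to 1.01 when single libraries were left out.

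Counted over the set, voomLmFit called 0 of 7 genes in met against non-met, where it called 0.418% of all genes. None of the 7 had an unadjusted P under 0.05, and the edgeR quasi-likelihood test, limma-trend and DESeq2 also called 0. The number of genes with all met libraries below all non-met libraries was 0 of 7, against 0.444% of all genes. In met against control 2 of 7 fell (Stab2 and, resting on control 1, Stab1) and 0 rose, against 1.2% of all genes called in either direction and 0.511% called lower. In non-met against control 1 of 7 fell (Stab2), against 0.636% of all genes called in either direction and 0.452% called lower. Groups did not overlap, with burdened lower, for 4 of 7 genes in met against control (Stab2, Mrc1, Il6st and Ctsf), where 12.3% of all genes did so, and for 3 of 7 in non-met against control (Stab2, Mrc1 and Ctsf), where 5.03% did so. These comparisons share the same 2 control libraries. The median log2 fold change of the 7 genes was -0.18, -0.39 and -0.53 in met against non-met, met against control and non-met against control, beside 0.08, -0.09 and -0.33 over all genes tested.

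**Figure D3:**
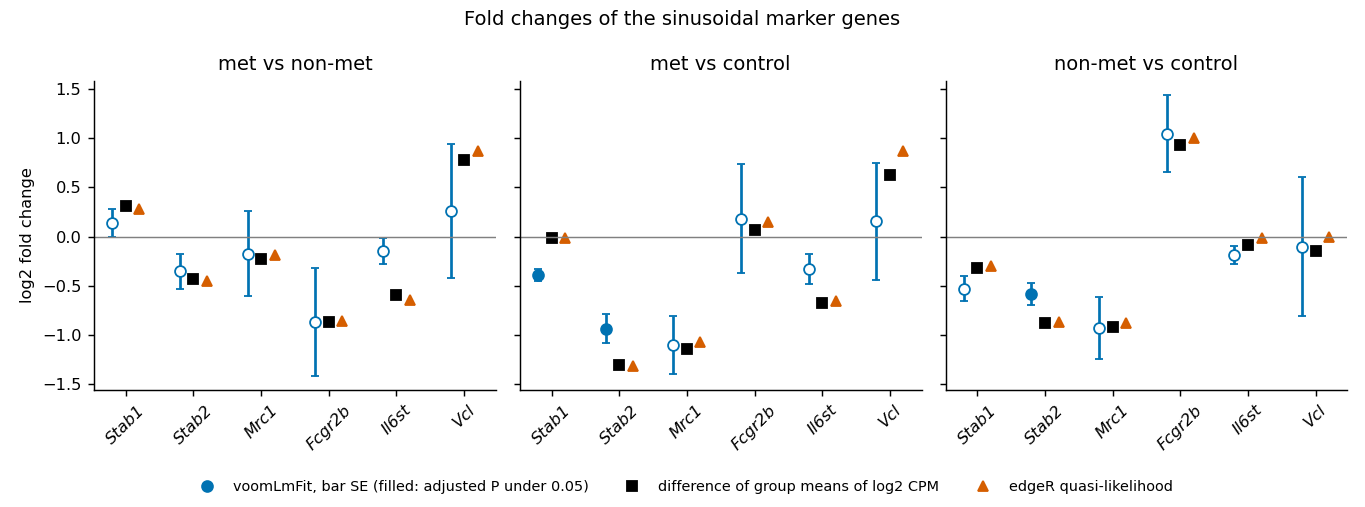
Log2 fold change (vertical axis) of 6 genes in the 3 comparisons, by voomLmFit with its SE (circles, filled where the adjusted P is under 0.05), as the difference of group means of log2 CPM (squares) and by the edgeR quasi-likelihood test (triangles). Stab2 lies below 0 in all 3 comparisons by each measure, whereas Stab1 in met against control is at -0.39 by voomLmFit and -0.01 by the group means. Ctsf is left out because its folds rest on libraries at or near 0.

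Within the 3 pools that held both areas, met could be set against non-met of the same mouse pool. Il6st was lower in met by 0.71, 0.90 and 1.12 log2 CPM in pools 2, 3 and 4, that is by -0.91 ± 0.20 (mean ± SD, n = 3). Fcgr2b differed by -0.81, -1.67 and -0.96, and Stab2 by -0.81, -0.64 and -0.47. Vcl went the other way, with 1.87, 0.85 and 0.44 log2 CPM. Stab1 differed by 0.21, 0.48 and -0.46, and Mrc1 by -0.97, -0.37 and 1.01, so neither kept a direction.

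Thus 3 of 7 genes (Il6st, Fcgr2b and Stab2) were below every non-met library of their pool in all 3 pools, a pattern seen in 5.67% of all genes, and 1 of 7 (Vcl) was above in all 3, a pattern seen in 7.6%. When voomLmFit was run on the burdened libraries with the mouse pool as a block, Il6st fell by 0.90 in met against non-met (SE 0.153, adjusted P = 2.01e-06) and was the only one of the 7 called, while 0.254% of the 9437 genes in that fit were called lower. With the same block, limma-trend placed Il6st at -0.88 on the log2 scale (adjusted P = 0.0783) and the quasi-likelihood test an adjusted P = 1. Leaving out any of the 3 libraries of pool 2 ended the call: the adjusted P was 1.00 without met 1, 0.916 without non-met 2 and 1.00 without non-met 6, with a log2 fold change of -0.94, -0.91 and -0.94. Without any other library the fold was -0.98 to -0.85 and the call was kept. In the blocked fit Stab2 stood at -0.64 (SE 0.277, adjusted P = 1.00) and Fcgr2b at -1.17 (SE 0.758, adjusted P = 1.00) on the log2 scale.

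**Figure D4:**
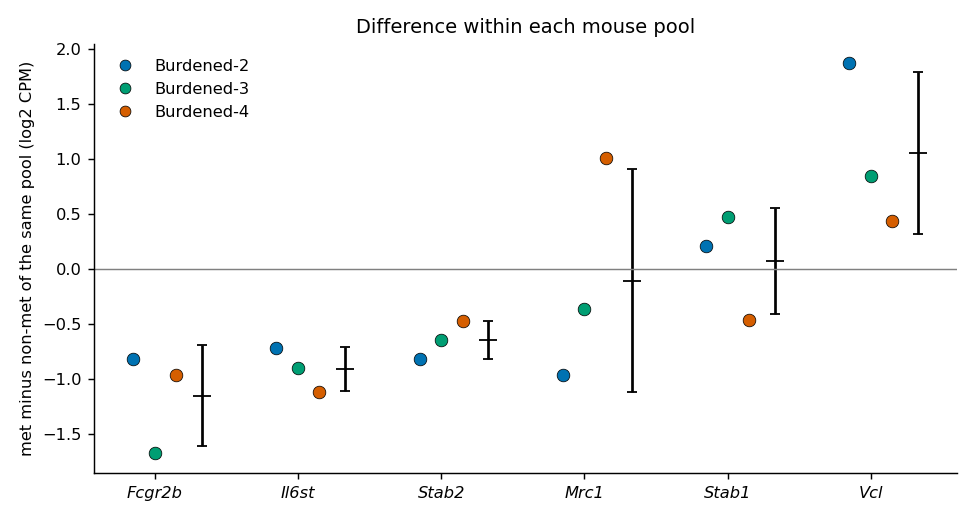
Difference in log2 CPM between the met library and the non-met libraries of the same mouse pool (vertical axis, mean of the non-met libraries where a pool had 2) for 6 genes, with points coloured by pool and mean ± SD beside them. Fcgr2b, Il6st and Stab2 lie below 0 and Vcl above 0 in pools 2, 3 and 4, whereas Mrc1 and Stab1 cross 0.

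Of the granulocyte markers, 11 of 11 had a negative voomLmFit log2 fold change in met against non-met, beside 48.2% of all genes tested. voomLmFit called 0 of the 11 (9 at an unadjusted P under 0.05), while the quasi-likelihood test called 4, limma-trend 1 and DESeq2 8. Over all 11949 genes, voomLmFit called 50, and the others in the same order 17, 2 and 326, of which 14, 2 and 305 were lower. In the granulocyte list 5 of 11 were below all non-met libraries of their pool in all 3 pools, beside 5.67% of all genes. S100a8 stood at 0 to 12.2 CPM in met and 66.9 to 951 CPM in non-met. No met library reached the granulocyte sum of any non-met library, and its part in the differences of Il6st, Fcgr2b and Stab2 was not tested.

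**Figure D5:**
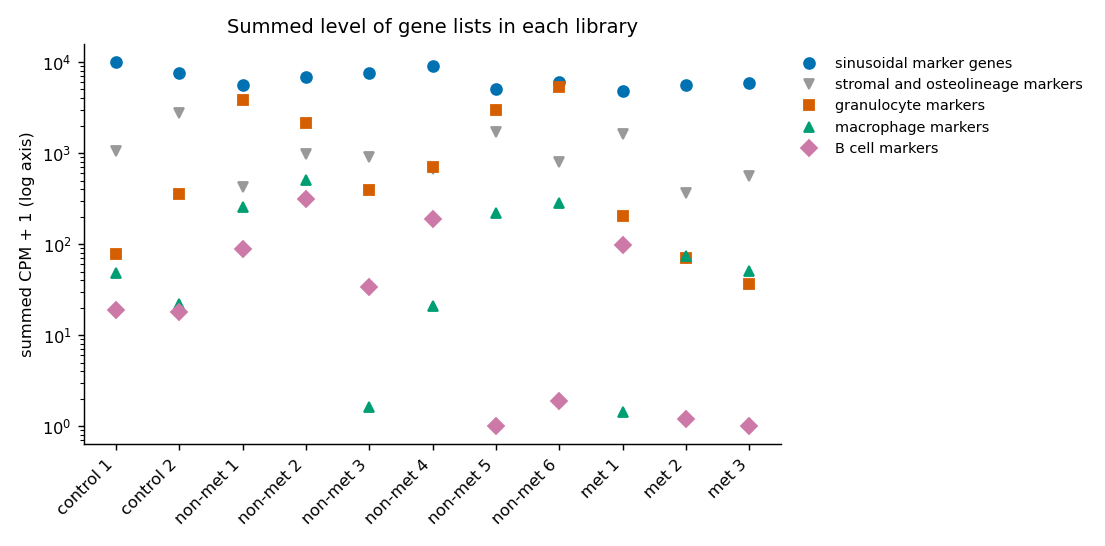
Summed CPM plus 1 (logarithmic vertical axis) of the 8 sinusoidal marker genes and of marker lists of other cells in each library. The sinusoidal genes sum to 7519 and 9967 CPM in control, 5062 to 9095 CPM in non-met and 4766 to 5931 CPM in met, and granulocyte markers to 397 to 5258 CPM in non-met.

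Partner genes of the same pathways were taken as whole lists. For these and the later lists, the calls of the other tools over all 11949 genes are the background. In met against non-met, met against control and non-met against control, the quasi-likelihood test called 17, 10 and 14 of all genes. In the same order, limma-trend called 2, 9 and 8, and DESeq2 326, 228 and 267. For gp130, 12 of 17 receptor partners and signalling genes were tested, and voomLmFit called 0 of them in any comparison, with 0, 1 and 1 at an unadjusted P under 0.05 in met against non-met, met against control and non-met against control, and 0 by the quasi-likelihood test, limma-trend and DESeq2. The kinases Jak1 and Jak2 and the feedback inhibitor Socs3 were the most abundant of these, with log2 fold changes in met against non-met of 0.22 (SE 0.165), -0.41 (SE 0.419) and 0.00 (SE 0.556). Of the 14 vinculin partners at adhesions, all tested, voomLmFit called 0 in met against non-met (3 at an unadjusted P under 0.05, and 0 by the other 3 tools) and 1 in each comparison with control, beside 1.2% of all genes in met and 0.636% in non-met. That gene was Itgb1, the integrin β1 chain, at 790 and 896 CPM in control, 911 to 2164 CPM in non-met and 1885 to 2190 CPM in met, with a log2 fold change of 1.10 in met against control (SE 0.0433, adjusted P = 4.44e-15 by voomLmFit, 0.886 by the quasi-likelihood test and 0.285 by limma-trend). No non-met or met library reached down to the controls for Itgb1.

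Among Fc receptors and their inhibitory partners voomLmFit called 0 of 5 tested genes in any comparison, with 0, 0 and 1 at an unadjusted P under 0.05 in the 3 comparisons in the same order, while DESeq2 called 1, 0 and 1 and the other 2 tools 0. The neonatal Fc receptor Fcgrt, which recycles IgG in endothelium, led this list at a mean of 1297 CPM. For scavenger receptors and the endocytic machinery voomLmFit called 0 of 16 tested genes, with 1, 3 and 2 at an unadjusted P under 0.05, while DESeq2 called 1, 1 and 0 and the other 2 tools 0. Clathrin (Cltc) and the lysosomal protein Lamp1 had voomLmFit log2 fold changes of -0.23 (SE 0.259) and 0.02 (SE 0.292) in met against non-met, while their mean log2 CPM, 9.61 in met and 9.49 in non-met for Cltc and 8.98 and 9.10 for Lamp1, differed with the opposite sign.

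Of 18 further genes named for sinusoids, 16 were tested and Clec4g was at 0 in every library. In met against non-met, 1 of 16 was called (0.418% of all genes), Plvap, which forms the diaphragms of fenestrae and caveolae. It rose by 0.85 (SE 0.0950, adjusted P = 5.09e-06 by voomLmFit), although its libraries overlapped and the quasi-likelihood test gave an adjusted P = 0.775. The mean log2 CPM of Plvap was 11.70 in met and 11.26 in non-met, closer together than this fold. Against control voomLmFit called 2 higher and 1 lower both in met (0.686% and 0.511% of all genes) and in non-met (22 and 54 of 11949 genes). In met and non-met against control, the quasi-likelihood test called 0 and 1, limma-trend 0 and 0, and DESeq2 1 and 1. Adamts5, a protease of aggrecan and versican, rose in met by 1.12 (SE 0.134, adjusted P = 9.49e-06) and in non-met by 1.40 (SE 0.102, adjusted P = 2.90e-09) by voomLmFit. Its mean log2 CPM was 10.03 in met, 10.52 in non-met and 9.47 in control, closer together than these folds. It was at 547 and 920 CPM in control, 1199 to 2630 CPM in non-met and 890 to 1312 CPM in met, so met overlapped control, and the adjusted P was 1 and 0.708 by the quasi-likelihood test and 1 and 0.281 by limma-trend in the same order. Plvap rose in met by 0.60 (SE 0.131, adjusted P = 0.0169) and Ubd in non-met by 1.81 (SE 0.324, adjusted P = 0.00603), both with libraries that overlapped control. Oit3, a gene of liver sinusoids, stood at 59.6 and 107 CPM in the controls, had 0 reads in the 3 met libraries (voomLmFit adjusted P = 0.00988, quasi-likelihood 0.886) and ranged from 0 to 91.1 CPM in non-met (voomLmFit adjusted P = 0.0234, quasi-likelihood 1). The gene that the quasi-likelihood test called in non-met was Vcam1, a leukocyte adhesion molecule (adjusted P = 0.0337, voomLmFit 0.0903), which stood at 874 and 1267 CPM in the controls, 4.98 to 302 CPM in non-met and 83.8 to 184 CPM in met, so that both burdened groups lay below control.

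All 15 genes of the type H and pan-endothelial list, which holds the sort markers, had a positive voomLmFit log2 fold change in met against non-met, beside 51.8% of all genes tested. By mean log2 CPM, Egfl7 (10.79 in met, 10.89 in non-met) and Tek (9.75 and 9.82) went the other way. voomLmFit called 5 of 15 higher, where it called 0.276% of all genes higher, while the quasi-likelihood test and limma-trend called 0 and DESeq2 called 1. Pecam1 was at 0.89 (SE 0.134, adjusted P = 0.000455, quasi-likelihood 0.563) and Cd34 at 1.31 (SE 0.203, adjusted P = 0.000732, quasi-likelihood 0.375). In met against control 11 were positive and 4 negative, beside 48% of all genes positive. voomLmFit called 5 higher (Pecam1, Cd34, Tie1, Emcn and Cdh5), where it called 0.686% of all genes higher, and the quasi-likelihood test called 0, limma-trend 1 and DESeq2 1. The gene called lower was Kdr, the main VEGF receptor (log2 fold change -0.48, SE 0.0620, adjusted P = 2.21e-05), but its mean log2 CPM was 10.68 in met and 10.60 in control, so the group means turned the direction. In non-met against control 8 were positive and 7 negative, beside 44.1% of all genes positive. voomLmFit called 0 higher and 1 lower, where it called 0.452% of all genes lower, and the other 3 tools called 0. The gene called lower was Eng, a TGF-β co-receptor (log2 fold change -0.80, SE 0.144, adjusted P = 0.00603). Its mean log2 CPM was 10.45 in non-met and 10.73 in control. Kdr and Eng both had libraries that overlapped control, and neither was called by the quasi-likelihood test (adjusted P = 1 for each). Pecam1 was at 972 and 1247 CPM in control, 1131 to 2427 CPM in non-met and 2297 to 3162 CPM in met. The cells were chosen by the CD31 and endomucin proteins, and the part of the gate in the RNA levels of Pecam1 and Emcn was not tested. Among 15 arterial genes tested, voomLmFit called 0 in met against non-met (1 at an unadjusted P under 0.05, and 0 by the other 3 tools). In met against control 1 was called higher and 2 lower, beside 0.686% and 0.511% of all genes (1, 1 and 0 by the quasi-likelihood test, limma-trend and DESeq2), and in non-met against control 1 was called lower, beside 0.452% of all genes (1, 0 and 1). Cxcl12, a chemokine that holds blood stem cells in marrow, fell by 4.07 in met (SE 0.346, adjusted P = 2.27e-08) and fell by 3.12 in non-met (SE 0.216, adjusted P = 1.69e-09), and was at 3224 and 8720 CPM in control, 555 to 2603 CPM in non-met and 225 to 1801 CPM in met. Nrp1, a VEGF and semaphorin co-receptor, fell by 1.01 in met (SE 0.211, adjusted P = 0.011, quasi-likelihood 1), and Ly6a (Sca-1) rose by 2.11 (SE 0.514, adjusted P = 0.0406, quasi-likelihood 0.886), both with met libraries that did not overlap control. Cxcl12 is also made by stromal cells, whose 13 markers summed to 1066 to 2742 CPM in control, 423 to 1709 CPM in non-met and 360 to 1627 CPM in met, and its part in the lower Stab2 and Mrc1 of burdened mice was not tested.

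The genes closest to each marker over the 11 libraries were taken as those with the smallest root-mean-square difference of centred log2 CPM. For Stab2 these were Selenop (0.301, where Stab2 itself had a root-mean-square deviation of 0.527) and Prrc2c (0.343), and for Stab1 they were Macf1 (0.229, with 0.353 for Stab1 itself) and Aplp2 (0.268). Il6st was closest to Elovl5 (0.252) and Rcn3 (0.255), Mrc1 to Zfp36l1 (0.407) and Ywhag (0.450), Vcl to Prkd3 (0.484) and Dysf (0.498), Fcgr2b to Rps27rt (0.445) and Rack1 (0.481), and Ctsf to Selenos (0.935) and Mnat1 (1.17). Within the set, Stab2 was nearest to Il6st (0.454), followed by Stab1 (0.482) and Mrc1 (0.491). None of the genes named as closest was another gene of the set.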

How the data were processed

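RNA was measured in 11 libraries of sorted CD31hi EMCNhi marrow endothelial cells (3 met, 6 non-met, 2 control), prepared with a low-input SMART-Seq protocol. The authors aligned reads to mm10 with Rsubread and summarised them with featureCounts, and the deposited values are raw counts per Entrez gene, with the same values in the table of all libraries and in the 11 tables of 1 library each. Strand use is not stated. Of 27179 rows, 25275 were named from RefSeq and 18 from GENCODE, the 1886 unnamed, 35 ribosomal RNA and 1794 predicted rows were left out (1.94% to 15.7% of a library's counts), and 23464 remained. filterByExpr (minimum count 10, minimum total 15) left 11949 genes.

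As in the study's methods, voomLmFit with sample weights was the main test (edgeR 4.0.16, limma 3.58.1, R 4.3.3), run on all 3 groups with TMM scaling and Benjamini-Hochberg adjustment over all genes at 0.05. The quasi-likelihood test of edgeR, limma-trend, DESeq2 1.42.0, other scalings and filters, no weights, library sets by keratin reads, and leaving out each library were alternatives. Plotted and listed CPM, RPKM and log2 CPM (prior count 2) were computed from the counts, and exact permutation tests, two-sided, were run on mean log2 CPM, with 84, 10 and 28 splits for met against non-met, met against control and non-met against control (smallest P 0.0119, 0.1 and 0.0357). The scripts were tested on simulated data. The pairing of met with non-met comes from the mouse pool in the labels. After removing group means, met and non-met libraries of the same pool had a Spearman correlation across genes of -0.0204 to 0.0217. Those of different pools had -0.0502 to 0.0706, so same-pool libraries were not more alike than others by this measure. The genes and lists were chosen with earlier results of these data known. All 8 genes are given in full, with the sort markers, and from other lists the 3 most abundant genes and genes called with libraries that do not overlap could be named. Kdr, Tek, Ubd, Vcam1, Prox1, Fcgr3 and markers at 0 fall outside this rule and were chosen after their values were seen. Counts limit precision, and the floor of 3 reads covers counting error only.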

Additional observations from a re-analysis of the deposited data

Results flagged for a closer look

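One value stood apart from its group by Dixon's criterion. Stab2 in non-met 5 of pool 1, at 9.85 log2 CPM, was the lowest of the 6 non-met libraries, and chance alone marks about 1 in 20 groups in this way. Stab1 was also lowest in that library, at 9.52 log2 CPM, without meeting the criterion.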

How the results depend on the processing

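In met against non-met the count of the 7 genes called by voomLmFit, 0, was 1 with RLE size factors (Stab2), 1 within the libraries of the higher keratin set (Il6st) and 1 with the mouse pool as a fixed replicate block (Il6st), and it ranged from 0 to 1 when single libraries were left out. In met against control the count of 2 was 1 with only the 2 groups in the model, 1 with DESeq2 and 1 with libraries of a pool and group summed. It was 1 with a term for the library set, 0 with the quasi-likelihood test and 0 with limma-trend, and 0 to 4 with single libraries left out. With RLE factors, library size only or no weights, the genes called there included Mrc1. In non-met against control the count of 1 was 0 with DESeq2, the quasi-likelihood test, limma-trend, the term for the library set and the lower keratin set alone, 2 with RLE factors, summed libraries, pool as a random replicate block, no filter or no weights, and 5 with library size only, and 0 to 3 with single libraries left out. The block changed no other call in met against control. Over all genes, the calls ranged from 2 to 326, 4 to 429 and 8 to 267 in the same order, and the median log2 fold change in non-met against control was -0.33 with TMM, -0.24 with RLE, -0.54 with library size only and -0.79 with limma-trend, and its sign turned with the quasi-likelihood test (0.14), DESeq2 (0.22) and no filter (0.56) and without control 1 (0.20, against -0.94 without control 2). The calls higher and lower were 33 and 17, 82 and 61, and 22 and 54 with TMM, 24 and 21, 77 and 63, and 32 and 51 with RLE, and 45 and 16, 63 and 73, and 22 and 138 with library size only, and 21 and 305, 137 and 91, and 263 and 4 with DESeq2.

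Reversals of sign touched fold changes that had not passed the test, apart from Stab1. For met against non-met, Mrc1 was 0.21 with the set term and 0.16 within the higher keratin set, and Ctsf was 1.59 with DESeq2, 1.61 with the quasi-likelihood test, 0.61 with limma-trend and 0.17 without weights. For met against control, Fcgr2b was -0.065 with 2 groups only and -0.13 with the set term. For non-met against control, Il6st was 0.075 with DESeq2 and Vcl was 0.084 with DESeq2, 0.028 with summed libraries, 0.20 with the set term and 0.12 within the lower keratin set. With single libraries left out, the voomLmFit fold ranged from -0.42 to 0.27 (Il6st) and -1.96 to 0.87 (Ctsf) in met against non-met, from -0.45 to 0.10 (Stab1) and -0.29 to 0.66 (Fcgr2b) in met against control, and from -0.44 to 0.10 (Vcl) in non-met against control. The difference of mean log2 CPM ranged from -0.53 to 0.18 (Mrc1) and -1.48 to 1.94 (Ctsf), from -0.25 to 0.22 (Stab1) and -0.28 to 0.52 (Fcgr2b), and from -0.24 to 0.052 (Il6st) and -0.39 to 0.014 (Vcl). The causes were not tested. Stab2 was negative in every alternative run.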
